A study of Homo sapiens with 22 samples.

Results

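The NRIP1 locus was followed through 20 lists of estrogen receptor alpha (ESR1) binding sites from Ishikawa cells, an endometrial adenocarcinoma line. Its members were all peaks that overlapped the 350 kb of chromosome 21 between 16.3 and 16.65 Mb of GRCh37 (hg19), a window set around NRIP1 and the stretch upstream of it. The window held 110 of the 356467 peaks in the lists. Merged where they overlapped by at least 1 bp, these made 16 of the 93612 sites of the whole series. The sites are numbered 1 to 16 from the low to the high coordinate.

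NRIP1, also called RIP140, encodes a corepressor that binds hormone-loaded nuclear receptors, ESR1 among them, and recruits histone deacetylases and other repressors to the genes they occupy. As background, NRIP1 is itself turned on by estrogen, so that the receptor drives a gene whose product restrains it, and in breast cancer cells ESR1 occupies enhancers far upstream of the gene. D538G is a substitution in the ligand-binding domain of ESR1, in the helix that closes over bound hormone, and is known to let the receptor act without estrogen.

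Chromatin immunoprecipitation sequencing (ChIP-seq) was carried out with an anti-FLAG antibody in clones whose ESR1 bore a FLAG tag, so the lists report tagged receptor only. The 4 groups were wild-type ESR1 with 0.1% DMSO (4 libraries), wild-type ESR1 with 10 nM estradiol (E2; 4 libraries), D538G ESR1 with 0.1% DMSO (6 libraries) and D538G ESR1 with 10 nM E2 (6 libraries), all treated for 1 h after at least 5 days in hormone-deprived medium. There were 2 wild-type and 3 D538G clones, and each clone gave replicates 1 and 2 under both treatments. Libraries of 1 clone share their cells, and p-values measure the spread between libraries only. The 2 input libraries, 1 per genotype, were not analysed here.

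The lists differed widely in length. They held 45 to 54903 peaks, and the reads behind them are unknown. The wild-type DMSO lists held 51 and 29118 peaks in clone 1 and 45 and 1080 in clone 2, so that a site missing from 3 of them is missing from a short list. Peak names given by the authors contained the word Ctl in 2 of 4 wild-type DMSO and 3 of 6 D538G DMSO lists. These are all the DMSO lists of replicate 1. No replicate 2 list had the word, and the peak names of replicate 2 lists named the treatment instead. Among E2 lists only 1 of 6 in D538G had Ctl, the list labelled clone 2 replicate 1. Whether the treatment in that label is right could not be checked here. That list was kept under its label, and the tests that include it are also given without it.

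The RefSeq table of promoters, on assembly GRCh38.p14, matched NRIP1 with 3 start sites, all on the reverse strand, so the upstream side of the gene is the side of higher coordinates. The estrogen response element is a palindrome of GGTCA and TGACC around a spacer of NNN, and GGTCA and TGACC, each the reverse complement of the other, were searched (so that both strands were covered) in the 250 bases before each start. Either motif was present before 1 of the 3 starts, 170 bases ahead of it, and is shown because it is the only match in these 3 promoters (GRCh38.p14, chr21:15065001-15065250, reverse strand; capitals mark the motif).
NRIP1 promoter 2: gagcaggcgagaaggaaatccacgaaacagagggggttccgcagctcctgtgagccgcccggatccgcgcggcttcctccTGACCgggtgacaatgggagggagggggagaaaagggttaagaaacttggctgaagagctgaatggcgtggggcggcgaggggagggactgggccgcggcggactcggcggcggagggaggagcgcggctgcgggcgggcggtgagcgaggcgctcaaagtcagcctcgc
The motif is common: 32.6% of the 35116 promoters in that table held it, and 14 (0.0399%) held the full element, none of them at NRIP1. The lists use GRCh37 and no genome or annotation of that build was used here, so this stretch was not overlaid on the peaks, peak sequences were not read, and no site is called promoter, intron or exon.

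Wild-type ESR1 was listed across the window with E2 and almost nowhere without it, while D538G was listed at several of the same sites without E2. In the wild-type DMSO lists, 0 sites had a peak in clone 1 replicate 1, 1 in clone 1 replicate 2, and 0 in each clone 2 list. In the wild-type E2 lists, 7 sites had a peak in clone 1 replicate 1, 7 in clone 1 replicate 2, 7 in clone 2 replicate 1 and 10 in clone 2 replicate 2. The 2 groups did not overlap. Wild-type DMSO lists of clone 1 replicate 1, clone 2 replicate 1 and clone 2 replicate 2 averaged 0.00757, 0.00668 and 0.16 peaks per 350 kb window of the genome. Little was thus listed in them at any window. How many other windows split in this way was not counted, so the split says little about NRIP1. D538G DMSO lists had peaks at 1 to 8 sites with a median of 4, and D538G E2 lists at 4 to 13 with a median of 7.5, and these 2 groups overlapped.

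**Figure D1:**
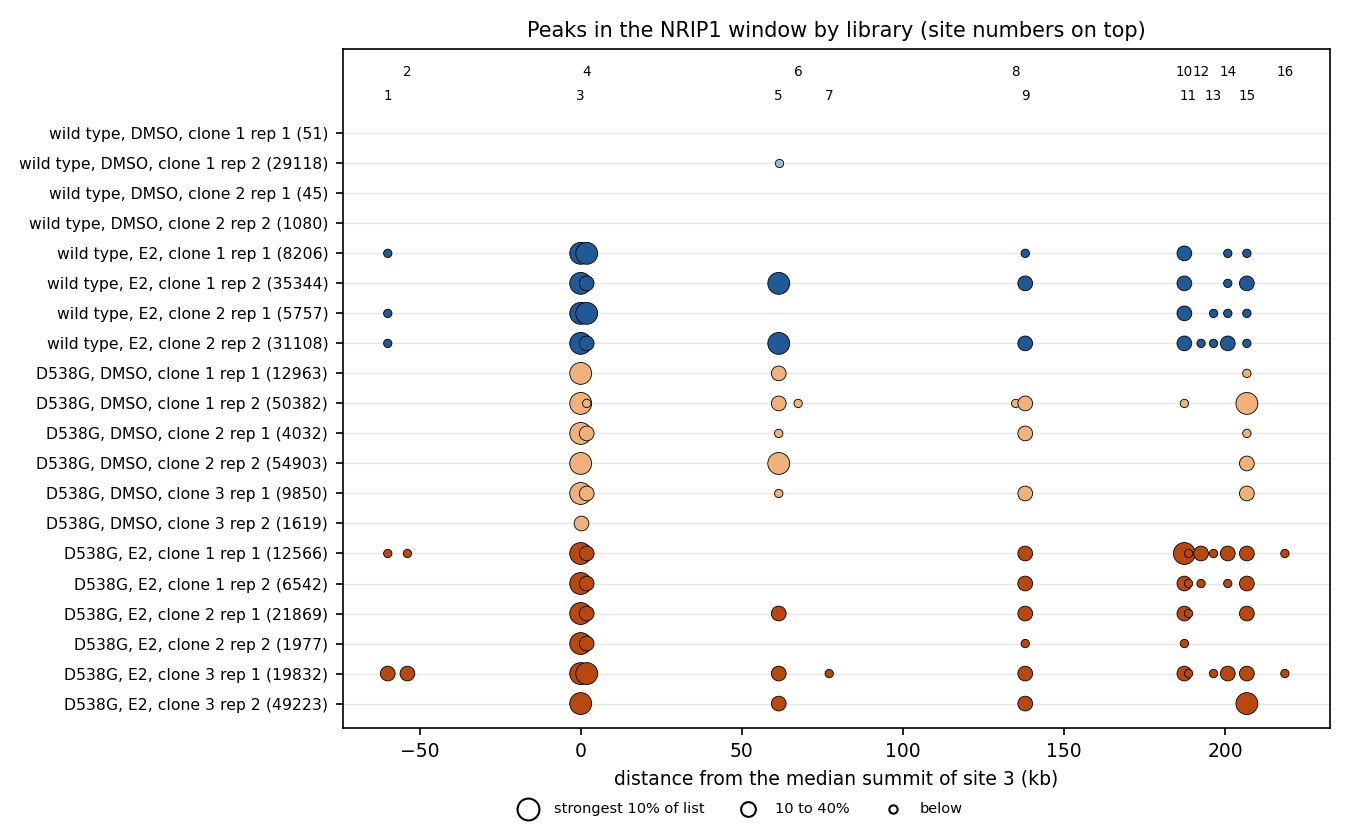
Peaks in the NRIP1 window, 1 row per library with its list length in brackets; the x axis is the distance in kb from the median summit of site 3 and circles are large for the strongest 10% of a list, medium from 10 to 40% and small below that. Site 3, at 0 kb, is filled in all 16 lists other than the wild-type DMSO lists, and the upper cluster between 187 and 219 kb is sparse in the D538G DMSO rows apart from site 15.

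The mean number of sites was 7.75 ± 1.5 (SD, n = 4) with E2 and 0.25 ± 0.5 (SD, n = 4) with DMSO in wild type. The difference of 7.5 sites had an exact two-sided permutation p of 0.0286, the smallest that 4 against 4 libraries allow, and an adjusted p of 0.0714 over the 5 tests of site number (Benjamini-Hochberg), so it did not pass adjustment. The E2 list had more sites in 4 of 4 clone-and-replicate pairs. Restricting lists to their 1000 strongest peaks took the difference to 1 site. This did not make the lists alike, as wild-type DMSO replicate 1 lists held 51 peaks in clone 1 and 45 in clone 2. Replicate 2 wild-type E2 lists had 0 sites left, their strongest window peaks ranking 2553 in clone 1 and 1302 in clone 2. With full lists, flipping signs within the 4 pairs gave an exact p of 0.125, which is as low as 4 pairs can go.

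In D538G the means were 8 ± 3.85 (SD, n = 6) with E2 and 4.17 ± 2.40 (SD, n = 6) with DMSO. The difference of 3.83 was within the spread between libraries (exact permutation p = 0.0887, adjusted p = 0.148), and among the 1000 strongest peaks of the lists it came to 0.333. Within pairs, E2 against DMSO was 12 against 3 and 8 against 8 sites in clone 1, 7 against 5 and 4 against 3 in clone 2, and 13 against 5 and 4 against 1 in clone 3. The E2 list had more sites in 5 of 6 pairs and the same number in the other. Flipping signs within the 6 pairs gave an exact p of 0.0625 (adjusted p = 0.156), as low as 6 pairs with 1 tie can go. Clones 1 and 3 in replicate 1 gave the widest gaps, 9 and 8 sites. Without the list labelled E2 clone 2 replicate 1 the difference was 4.03 (exact permutation p = 0.104).

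Without estrogen, D538G lists had 3.92 more NRIP1 sites than wild-type lists (exact permutation p = 0.0190, adjusted p = 0.0714). The difference did not pass adjustment, and it passed when the D538G DMSO clone 3 replicate 2 list of 1619 peaks was left out (4.55 sites, exact permutation p = 0.00794, adjusted p = 0.0397). That list had 1 site, the fewest of its group, so leaving it out could only widen the difference and adds no support. The difference came to 4.17 sites once the wild-type DMSO clone 1 replicate 2 list was removed (exact permutation p = 0.0238, adjusted p = 0.0714). As the only wild-type DMSO list with a site, its removal also could only widen the difference. Among the 1000 strongest peaks of the lists it came to 0.833. With clone means as the units, 3 D538G against 2 wild-type clones, the exact permutation p was 0.1, the smallest possible, and the adjusted p 0.333. Within replicate 1 it was 4.33 (exact permutation p = 0.100, the smallest possible there) and within replicate 2 it was 3.50 (exact permutation p = 0.300). With E2 the genotypes differed by 0.250 sites (exact permutation p = 0.933, adjusted p = 0.933), by 3.67 within replicate 1 and by -3.17 within replicate 2. Without the list labelled E2 clone 2 replicate 1 the difference was 0.45 (exact permutation p = 0.929).

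Over 4 wild-type pairs the gain with E2 averaged 7.5 ± 1.73 sites (SD, n = 4). Over 6 D538G pairs it averaged 3.83 ± 3.76 sites (SD, n = 6). The D538G minus wild-type difference in gain, -3.67, was within the spread between pairs (exact permutation p = 0.133, adjusted p = 0.167). It was -0.667 within replicate 1 and -6.67 within replicate 2, and -3.3 without the list labelled E2 clone 2 replicate 1 (exact permutation p = 0.190). Among the 1000 strongest peaks of the lists it was also -0.667.

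**Figure D2:**
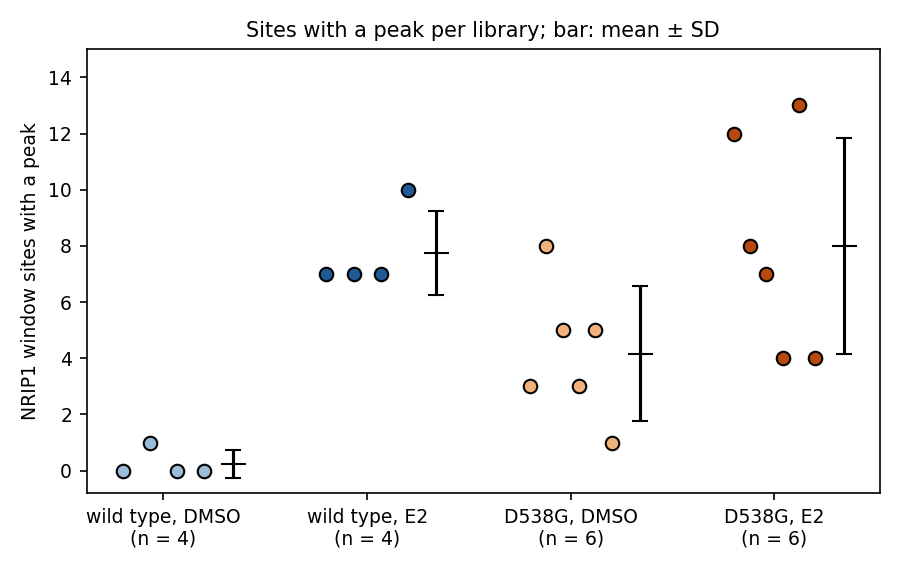
Number of the 16 NRIP1 window sites with a peak in each library (points) by group, with the group mean and SD (bars). The wild-type DMSO points lie at 0 or 1, below all 4 wild-type E2 points at 7 to 10, while the D538G groups overlap.

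Site 3, chr21:16375485-16376460, was the most shared site, with peaks in 16 of 20 lists. These were the 12 D538G lists of both treatments and the 4 wild-type lists with E2, and no wild-type DMSO list had it. It held the strongest peak of the window in 13 of the 17 lists with any peak there. The rank of a peak is counted from the top of its own list by the authors' signal value and is a description only, since lists differ in length. In wild-type E2 lists the site 3 peak ranked 89 of 8206 and 2553 of 35344 in clone 1 and 43 of 5757 and 1302 of 31108 in clone 2. In D538G DMSO lists it lay 2.46% to 23% from the top with a median of 4.68%, and in D538G E2 lists 2.69% to 9.77% with a median of 4.82%. Without E2 the mutant receptor had this site within the top 7% of 5 of its 6 lists, and at rank 373 of 1619 in clone 3 replicate 2.

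Among wild-type DMSO lists only that of clone 1 replicate 2 was long, with 29118 peaks. It had no peak at site 3, whereas the wild-type E2 lists of 35344 and 31108 peaks did. Among short lists, site 3 was present in the D538G DMSO list of 1619 peaks and, at rank 124, in the D538G E2 list of 1977, and absent from the wild-type DMSO list of 1080. Reads are unknown for every list, and lists of like length need not be of like depth. Little binding and little depth cannot be told apart in any of them, least of all in the lists of 45 and 51 peaks.

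Presence was tested by Fisher's exact test in every site of the series with peaks in at least 2 of the libraries compared, with p-values adjusted over all of them. For site 3, 6 of 6 D538G against 0 of 4 wild-type DMSO lists gave an exact p of 0.00476 (adjusted p = 0.585), and 4 of 4 E2 against 0 of 4 DMSO lists in wild type gave an exact p of 0.0286 (adjusted p = 0.306). These are the smallest p-values the designs allow. Both lists of every D538G pair had the peak, so none of these pairs could gain it. It was gained with E2 in 4 of 4 wild-type pairs and in 0 of 6 D538G pairs. Genotype permuted over the 10 pairs gave an exact p of 0.00476 for this difference (adjusted p = 0.776), with 2.83% of 52609 sites of the series at an unadjusted p under 0.05 and 277 (0.527%) sharing this full contrast. Without the pair of the list labelled E2 clone 2 replicate 1 the exact p was 0.00794 (adjusted p = 1). The same 16 lists and no others had a peak in 189 sites of the series, 0.202% of all, site 3 included.

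Site 4, chr21:16377450-16378216, lay 0.989 kb above site 3 and had peaks in 12 lists: 4 of 4 wild-type E2, 3 of 6 D538G DMSO, 5 of 6 D538G E2 and 0 of 4 wild-type DMSO. In wild-type E2 clone 1 replicate 1 it was the strongest peak of the window at rank 87, beside rank 89 for site 3, and it also led in D538G E2 clone 3 replicate 1, at rank 408 against 1938. In the other wild-type E2 lists it ranked 5951 of 35344, 178 of 5757 and 3242 of 31108, below site 3. Its D538G DMSO peaks lay 13.6%, 23.4% and 90.5% from the top, well under site 3 in the same lists. For D538G against wild type without estrogen the Fisher p was 0.2.

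Site 15, chr21:16582457-16583074, 207 kb above site 3, was listed for unliganded D538G as often as site 5, in 5 of 6 lists. It was also present in 5 of 6 D538G E2 lists, and in 4 of 4 wild-type lists with E2 and 0 of 4 without. Wild-type E2 peaks stood 38.4% to 63.8% from the top, against 5.25% to 88.9% in D538G DMSO lists with a median of 15.6%, and 6.81% to 37.4% in D538G E2 lists with a median of 15.2%. In D538G DMSO clone 1 replicate 2 it led the window at rank 2645 of 50382. Presence without estrogen differed between genotypes at p = 0.0476 (adjusted p = 1), and the E2 gain, in 4 of 4 wild-type pairs against 1 gained and 1 lost of 6 D538G pairs, differed at an exact permutation p of 0.0429 (adjusted p = 1), and at 0.0476 without the pair of the list labelled E2 clone 2 replicate 1.

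**Figure D3:**
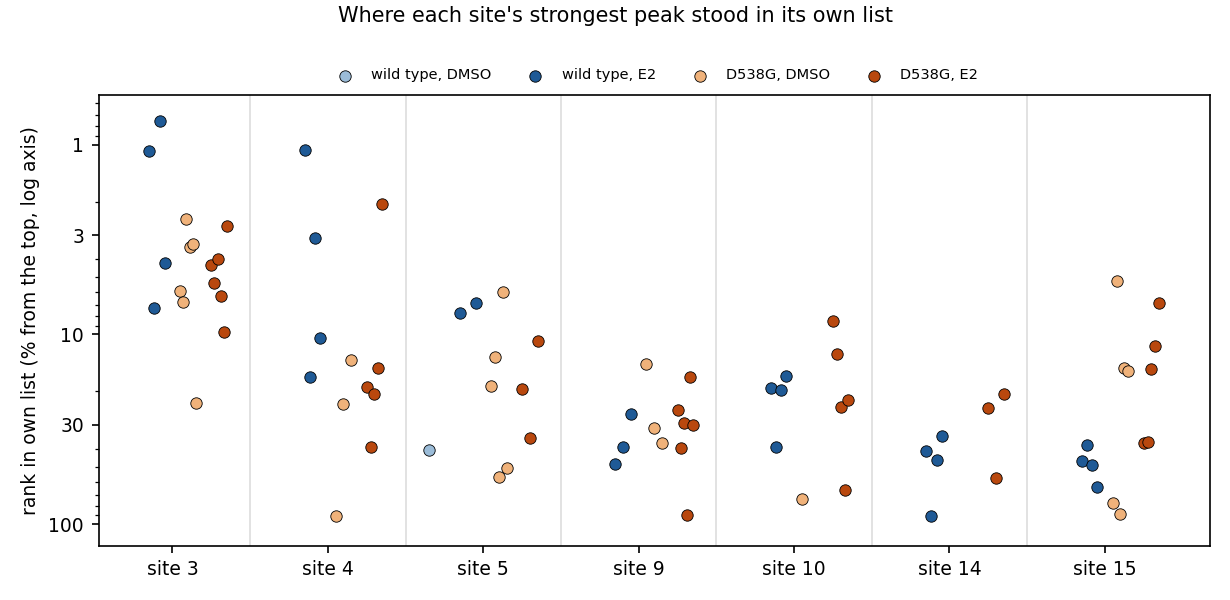
Rank of each site's strongest peak in its own list, in percent from the top on an inverted log axis, 1 point per library with a peak, coloured by group. Site 3 lies within 10% of the top in every list that holds it except the D538G DMSO point at 23%, and site 10 has 1 D538G DMSO point, at 73.4%.

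The remaining sites of the upper cluster, a 31.8 kb stretch from 16562959 to 16594749, were seldom listed for D538G without E2. Apart from site 15 the cluster has 6 sites, numbered 10 to 14 and 16. Over these 6 sites, 0 of 24 combinations of site and library had a peak in wild-type DMSO, 11 of 24 in wild-type E2, 1 of 36 in D538G DMSO and 18 of 36 in D538G E2. This stretch was picked out after its values were seen, so the counts carry no test. The D538G DMSO peak came from the clone 1 replicate 2 list of 50382 peaks. The D538G E2 peaks came from 5 of 6 lists and were spread unevenly. Clone 1 replicate 1 had all 6 sites, and clone 3 replicate 2, with 49223 peaks, had none of them. The same contrast was not counted over other sites of the series.

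Site 10, chr21:16562959-16563703, had peaks in 4 of 4 wild-type E2, 5 of 6 D538G E2, 1 of 6 D538G DMSO and 0 of 4 wild-type DMSO lists. Its wild-type E2 peaks ranked 1574 of 8206 and 13832 of 35344 in clone 1 and 1132 of 5757 and 5181 of 31108 in clone 2. The D538G DMSO peak ranked 36963 of 50382, while the D538G E2 peaks lay 8.53% to 65.9% from the top. For E2 against DMSO in D538G the Fisher's exact p was 0.0801 (adjusted p = 1), with or without the list labelled E2 clone 2 replicate 1.

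Site 14, chr21:16576547-16577229, had peaks in 4 of 4 wild-type lists and 3 of 6 D538G lists with E2, and in 0 of 10 DMSO lists of either genotype. Both D538G clone 1 E2 lists and the clone 3 replicate 1 E2 list held it, at 20.6% to 56.9% from the top. Wild-type E2 peaks stood at 41.2% and 90.2% in clone 1 and 46.1% and 34.2% in clone 2. E2 against DMSO in D538G gave a Fisher's exact p of 0.182 (adjusted p = 1), and 0.0606 without the list labelled E2 clone 2 replicate 1, which lacked the site.

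Site 11, chr21:16564442-16564939, was present in 4 of 6 D538G E2 lists and in none of the others. The 4 lists were both of clone 1, the clone 2 replicate 1 list with Ctl in its peak names, and clone 3 replicate 1. Against D538G DMSO the p was 0.0606 and against wild-type E2 it was 0.0762, each with an adjusted p of 1. Without the list with Ctl in its names, 3 of 5 lists had the site, and the Fisher's exact p was 0.0606 against D538G DMSO and 0.167 against wild-type E2. In place of it, the D538G E2 list of clone 2 replicate 2 (1977 peaks) or clone 3 replicate 2 (49223 peaks) was left out. Either gave a Fisher's exact p of 0.0152 against D538G DMSO and 0.0476 against wild-type E2 before adjustment. These are the only D538G E2 lists without the site, so leaving out either could only lower the p and adds no support. Sites 12, 13 and 16 had peaks in 3, 4 and 2 lists, all with E2.

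Unliganded D538G was then set against E2-bound wild type, a comparison chosen after the data were seen. The smallest p in the window was at site 14, with 4 of 4 wild-type E2 and 0 of 6 D538G DMSO lists (Fisher's exact p = 0.00476, adjusted p = 0.231). Sites 10 (exact p = 0.0476) and 1 (exact p = 0.0333) were also more often listed in wild type with E2, each losing the call on adjustment, while site 3 was in all 10 of these lists. In this comparison 4.99% of 37118 sites had an unadjusted p under 0.05, 4.85% toward wild type and 0.145% toward D538G.

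Site 5, chr21:16436386-16438342, was the widest site at 1957 bp and had the only wild-type DMSO peak. That peak ranked 11820 of 29118 in clone 1 replicate 2. The site was also present in 2 of 4 wild-type E2, 5 of 6 D538G DMSO and 3 of 6 D538G E2 lists. Both wild-type E2 peaks came from the replicate 2 lists and lay 7.70% and 6.81% from the top. It was the only one of the 8 sites with peaks in 5 or more lists that had more D538G lists with DMSO than with E2 (Fisher's exact p = 0.545, and 0.242 without the list labelled E2 clone 2 replicate 1). D538G against wild type without estrogen gave a Fisher's exact p of 0.190. It was 0.0476 before adjustment once the wild-type clone 1 replicate 2 list or the D538G clone 3 replicate 2 list was left out. The former was the only wild-type DMSO list with the site, and the latter the only D538G DMSO list without it. Leaving out either could only lower the p, so the lower value adds no support.

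Site 9, chr21:16513697-16514520, had peaks in 3 of 4 wild-type E2, 3 of 6 D538G DMSO, 6 of 6 D538G E2 and 0 of 4 wild-type DMSO lists. Its peaks lay 26.2% to 48.3% from the top in wild-type E2 lists and 16.7% to 89.1% in D538G E2 lists. E2 against DMSO in D538G gave a Fisher's exact p of 0.182, with or without the list labelled E2 clone 2 replicate 1. At the low end of the window, site 1, chr21:16315932-16316253, had peaks in 3 wild-type E2 and 2 D538G E2 lists and in no DMSO list. Site 2 was in 2 D538G E2 lists, and sites 6, 7 and 8 were each in 1 D538G list.

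Over the window, 9 of the 16 sites had enough lists to be tested for E2 against DMSO in wild type, and 5 of them (sites 3, 4, 10, 14 and 15) had an unadjusted Fisher p under 0.05, all more often listed with E2, against 9.34% of all sites tested. None passed adjustment, and no site of the whole series passed it in any of the 4 comparisons. The smallest Fisher p possible here was 0.0286, with 29233 sites tested. Failing adjustment therefore does not show that presence at a site was unchanged. The paired exact McNemar test gave 0 because 4 pairs cannot reach 0.05. In D538G, 0 of 13 sites tested for E2 against DMSO reached that level before adjustment (all sites: 0.0200%). For D538G against wild type with DMSO, 5 were tested and 2 (sites 3 and 15) passed before adjustment (all sites: 3.57%), and 1 with genotype permuted within the replicate number. With E2, 0 of 13 passed (all sites: 1.21%, made up of 0.325% toward D538G and 0.890% toward wild type). Both counts with D538G E2 lists were also 0 without the list labelled E2 clone 2 replicate 1. All 10 sites found in wild-type lists were also found in at least 1 D538G list, and 6 sites were in D538G lists only, 4 of them in E2 lists. Sites 6, 7 and 8, each in 1 list, are among the 6. D538G had more lists than wild type, most wild-type DMSO lists were short, and the share over all sites was not counted. These numbers therefore say nothing about genotype.

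Summits at site 3 fell within 73 bp of each other over 16 libraries. With E2 the mean summit was 16375965 ± 29.9 bp (SD, n = 4) in wild type and 16375973 ± 12.1 bp (SD, n = 6) in D538G, a difference of 7.83 bp smaller than either SD (exact permutation p = 0.610, two-sided; 6.2 bp and p = 0.690 without the list labelled E2 clone 2 replicate 1). Site 5 was unlike this. Its strongest peaks had summits in 2 places 472 bp apart, from 16437375 to 16437486 and from 16437958 to 16438056. All 3 wild-type lists with the site had the lower summit, as did 1 of 5 D538G DMSO and 1 of 3 D538G E2 lists, and the other 4 and 2 had the upper one. The 3 wild-type lists are all of replicate 2. Over both genotypes 4 of 5 replicate 1 lists and 2 of 6 replicate 2 lists had the upper summit, so genotype and replicate number cannot be told apart here. Among D538G lists the upper summit was found in 4 of 5 of replicate 1 and 2 of 3 of replicate 2. This split was noticed in the data and carries no test.

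**Figure D4:**
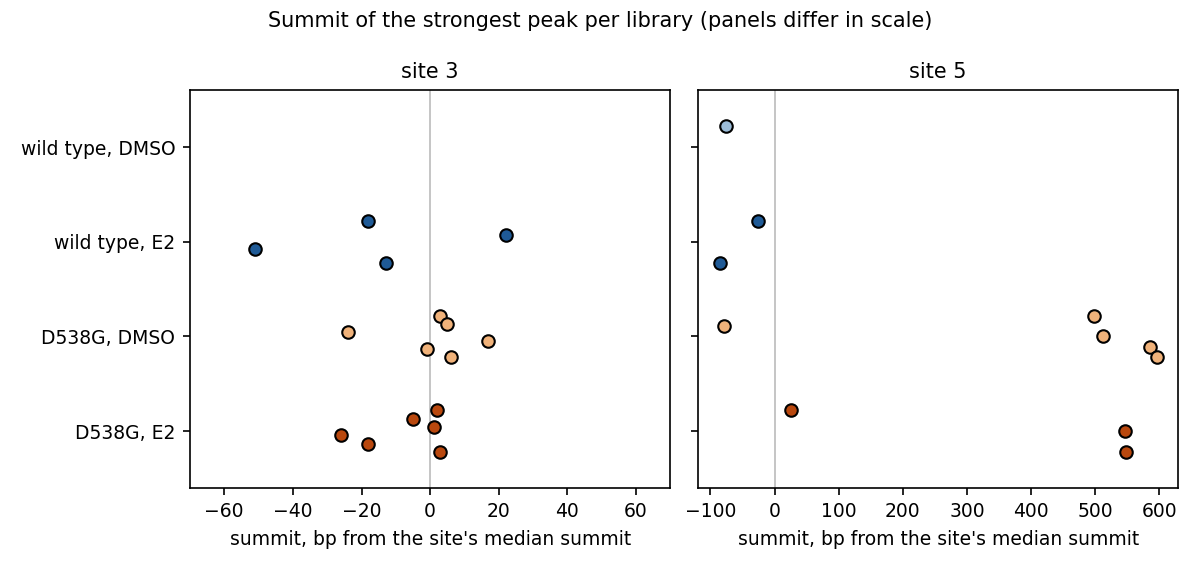
Summit of the strongest peak per library at site 3 (left) and site 5 (right), in bp from the median summit of the site, by group; the x axes differ in scale. Site 3 summits stay within 73 bp, and at site 5 all wild-type points lie at the lower position while 6 of 8 D538G points lie at the upper one.

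The window was dense in binding for its size in some lists and not in others. Against 6735 windows of 350 kb with a peak in any list, as many or more peaks as at NRIP1 were found in 3.67% and 1.99% of windows in the replicate 1 wild-type E2 lists of clones 1 and 2, and in 23.1% and 10.7% in the replicate 2 lists. In D538G E2 lists the share ran from 1.17% to 32.3%, and in D538G DMSO lists from 1.92% to 40.6%. In the wild-type DMSO list of 29118 peaks, 70.3% of windows held at least the 1 peak found at NRIP1. Per 10000 list peaks the window held 1.98 to 12.2 peaks in wild-type E2 lists and 0.343 in that DMSO list. The windows whose strongest peak stood most alike over the 20 lists were chr8:98000001-98350000 (Spearman rho 0.87), chr18:46900001-47250000 (0.86) and chr10:13650001-14000000 (0.84), among 3620 windows with a median rho of 0.31. The 20 lists fall into the same 4 groups at every window, so these values are a description.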

How the data were processed

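Each of the 20 precipitated libraries had its own peak list in narrowPeak layout. Per the submitters' processing notes the build was hg19 and the tools included Bowtie and MACS2. Versions and settings are not given in the sources used here. Peak names contained the word Input in 2 of 6 D538G DMSO and 2 of 6 D538G E2 lists, all of replicate 1, and in no wild-type list. Controls are otherwise not given. The deposited signal value of each peak is the authors' own, with its scaling not stated, and served only for ranks inside its own list. The deposited −log10 p and −log10 q values served only for a stricter threshold. Files give no counts of reads, so depth is unknown. The 5 mitochondrial peaks were left out.

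From these, peaks overlapping by at least 1 bp were merged over all lists (Python 3.11.15, pandas 2.3.3, scipy 1.17.1). Sites per library were compared by exact two-sided permutation tests, adjusted over 5 tests. Presence was compared by Fisher's exact test in sites with peaks in at least 2 libraries, adjusted over all sites, with a threshold of 0.05. Fisher's test over all sites was tested on simulated lists, and the exact tests on small cases with known answers. The pairs of E2 with DMSO are libraries of the same clone and replicate number in the titles; genotypes share only a replicate number. Alternatives were 1000 peaks per list, a −log10 q above 20, summits chained within 200 bp, 100 bp overlap, a window 50 kb wider on each side, clone means, blocks and leaving out each library. Named sites were the 8 in most lists and the 3 with the smallest p per comparison; the 3 most alike windows were named by Spearman rho. Members, lists and tests were chosen with earlier results of these data known. The planned count at coregulator genes needs a GRCh37 annotation and was not run.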

Additional observations from a re-analysis of the deposited data

Results flagged for a closer look

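The gain of a peak with E2 at site 3 differed between genotypes, with 4 of 4 wild-type pairs and 0 of 6 D538G pairs (exact permutation p = 0.00476, adjusted p = 0.776). At site 15 the same test gave an exact permutation p of 0.0429 (adjusted p = 1). Neither passed adjustment over all sites, and 2.83% of the 52609 sites tested had an unadjusted p under 0.05. All 6 D538G DMSO lists already had site 3 and 5 of 6 had site 15, so few D538G pairs could gain a peak. Both results therefore largely restate the difference between genotypes without E2.

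Some libraries lay apart from 3 tied lists of their group. Wild-type DMSO clone 1 replicate 2 had 1 NRIP1 site, or 0.343 window peaks per 10000 list peaks, where the other 3 lists had 0. Wild-type E2 clone 2 replicate 2 had 10 sites where the other 3 lists had 7. With 3 tied values any other value is marked, and the first and second of these values rest on the same peak. These 3 came from 14 groups of values searched. The rate of about 1 in 20 marked by chance does not hold for tied counts, so their number is a description only.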

How the results depend on the processing

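Of 182 alternatives, 166 neither reversed the sign nor changed the call, or kept the count within 1.5 times. No difference in site number passed adjustment at the main setting, so none had a call to lose. The 166 also take in large falls in size. With the 1000 strongest peaks per list, E2 against DMSO fell from 7.5 to 1 site in wild type and from 3.83 to 0.333 in D538G. D538G against wild type with DMSO fell from 3.92 to 0.833. The tally therefore does not show that the sizes were stable. Leaving out 1 library at a time gave 6.75 to 7.75 sites for E2 against DMSO in wild type, 2.83 to 4.63 in D538G, 3.15 to 4.55 for D538G against wild type with DMSO, -0.750 to 1.05 with E2 and -4.70 to -2.83 for the difference in E2 gain. The DMSO comparison passed adjustment only without D538G DMSO clone 3 replicate 2 (4.55, adjusted exact permutation p = 0.0397). That list had the fewest sites of its group, so leaving it out could only widen the difference and adds no support. The E2 comparison of 0.250 turned to -0.167 at a −log10 q above 20, to -0.250 in the wider window, to -0.550 without D538G E2 clone 1 replicate 1 and to -0.750 without D538G E2 clone 3 replicate 1.

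Counts of sites with an unadjusted Fisher p under 0.05 were 5 to 6, 0 to 2, 2 to 3 and 0 to 1 with 1 library left out, in the order wild type E2, D538G E2, genotype with DMSO and genotype with E2. The share over all sites of the series moved too, over 9.35% to 14.3%, 0.0232% to 1.39%, 2.87% to 7.82% and 0.929% to 2.82%. The calls of the second came without D538G E2 clone 2 replicate 2 (1), D538G E2 clone 3 replicate 2 (2) or D538G DMSO clone 1 replicate 2 (1), and of the fourth without the former 2 lists (1 each). In each case the list left out went against the difference at the site then called, so its removal could only lower the p. The same holds for the added calls at sites 1 and 9 in wild type and at site 5 between genotypes with DMSO. With the 1000 strongest peaks per list, only 2 window sites could be tested in wild type and 1 between genotypes with DMSO, and 0 of these were called (all sites: 2.01% and 14%), while a −log10 q above 20 left 1 of the 2. With the replicate block the 5 and 2 became 0 and 1. No site passed adjustment under any of these. The cause was not tested.

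Blocking on the pair left the difference at 7.5 sites in wild type (exact p = 0.125). In D538G it left it at 3.83 (exact p = 0.0625, the smallest possible with 1 tied pair). Genotype permuted within the replicate number gave 3.92 with DMSO (exact p = 0.03). No call on site number changed with the replicate block. The summit difference at site 3 ran from -4.17 bp (without wild-type E2 clone 2 replicate 1) to 20.2 bp. Leaving out both D538G clone 2 replicate 1 lists, chosen after the data were seen, gave 4.20, 3.75, 0.450 and -3.30 sites for the 4 comparisons with D538G. Clone means gave exact p-values of 0.333, 0.2, 0.1, 1 and 0.2 for the 5 tests of site number, with no adjusted p under 0.333. The reads behind each list are unknown, so what depth limits was not tested.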
